A study of Mus musculus with 2 samples.

Results

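The genes described here are 52 genes of mitosis, the kinetochore and the spindle, and their RNA was compared between LMO2 siRNA and control siRNA in G1E-ER-GATA-1 cells. They were found by gene name, current or older, among the probes of both arrays. All 52 were measured, among 14263 genes in all, by 92 probes of which 88 passed the filter on dim spots. The list was made up by function, and 8 roles divide it, from entry into mitosis to chromosome structure.

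G1E-ER-GATA-1 is a mouse line that lacks the erythroid transcription factor GATA-1 and carries a GATA-1 fusion protein that estradiol switches on. LMO2 is a bridging protein of erythroid transcription factor complexes. Every sample shared the GATA-1-null background, the fusion and 24 h of estradiol given after transfection, and the arms differed in the siRNA, against Lmo2 or control. The study held 2 arrays, numbered as replicates 1 and 2, and each carried RNA of both arms: control siRNA in Cy5 and LMO2 siRNA in Cy3. The dyes were not swapped, so an effect of the dye and an effect of the siRNA cannot be told apart. The labels do not say whether the replicates came from separate cultures, so the spread behind a p-value is only that between these arrays, which may be technical. That spread is largely borrowed across genes, so a p-value does not by itself measure how well the 2 arrays agree for a gene. The line is a single engineered line, and in a bulk sample fewer cells in mitosis and less RNA per cell cannot be told apart.

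In a dividing cell, cyclin B with CDK1 starts mitosis, and kinases of the Polo and Aurora families direct spindle assembly. Kinetochores built on CENP-A chromatin tie chromosomes to the spindle, and the checkpoint proteins hold back the anaphase-promoting complex until all are attached. Most of these genes are transcribed in G2 and M phase, through the MuvB complexes with B-MYB and FOXM1, and terminally maturing erythroid cells, in which GATA-1 acts, leave the cell cycle.

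Every value below is a log2 ratio of LMO2 siRNA over control siRNA, so that a value below 0 means less RNA with LMO2 siRNA, and ± gives the SD of 2 arrays. Ratios were normalised within each array, and the raw signals printed beside them do not give the ratio directly: the raw control signal was the higher one for all 52 genes on both arrays, also where the normalised ratio was above 0. A gene was called lower or higher at a Benjamini-Hochberg adjusted p under 0.05 in limma, over all genes tested. Ratios also ran with the position of a probe: the median of all genes went from -0.24 in the first of 10 equal blocks of array rows to 0.15 in the last. Each result is therefore given a second time after division by the scanner's own position factor, which brought those medians to between -0.05 and 0.10. The words fell and rose are kept for genes called the same way in both of these and in the scanner's processed signals, without saturation.

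Lmo2 itself, the gene the siRNA targets, read 1254 and 1138 in the LMO2 siRNA channel of arrays 1 and 2, against 8336 and 8571 in the control channel. Both arrays put it far lower with LMO2 siRNA, at -1.82 and -2.02, and it fell 3.77-fold (-1.92 ± 0.14, limma adjusted p 2.9e-21). The share of spots well above background was 55.8% to 68.2% over the 4 channels. The labels call the cells murine ES cells of erythroid tissue. Of 15 erythroid markers 12 were measured, and 5 were called lower and 4 higher. Of the 4 called higher, 3 were globin genes saturated in both channels, whose ratios carry no measured difference, and the other was Epor, the erythropoietin receptor gene. Of 9 markers of pluripotent stem cells 6 passed the filter, with raw signals from 51.3 to 149, summing to 453 and 420 with LMO2 siRNA and 656 and 529 with control siRNA. One pluripotency marker, Dppa5a, was called higher and none lower. Markers of megakaryocytes (8 of 9 measured, 1 lower, 2 higher), mast cells (5 of 7, 2 higher) and granulocytes or macrophages (5 of 9, 2 higher) gave summed signals of 2369 and 2358, 914 and 907, and 429 and 441 with LMO2 siRNA. With control siRNA the same sums were 2967 and 2741, 826 and 809, and 614 and 615. Their part in the mitotic results was not tested.

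Most mitotic genes were called lower with LMO2 siRNA. Of the 52 genes 40 were called lower, 1 was called higher and 11 were neither, while 27.4% of all genes tested were called lower and 24.7% higher. The median log2 ratio of the 52 was -0.37 (-0.34 on array 1 and -0.40 on array 2), and that of all genes was -0.02. Both arrays gave a ratio below 0 for 46 of the 52, against 44.4% of all genes. Corrected for position, 43 were called lower and none higher by limma, while 20.5% of all genes were called lower. At an unadjusted limma p under 0.05, 45 were lower and 0 higher, a threshold for which no share of all genes is given. The 20.5% belongs to the adjusted threshold, so the 45 cannot be judged against it. The corrected median was -0.24, with -0.20 on array 1 and -0.30 on array 2. The differences were small, and their size depended on the correction: for 22 genes called lower, the uncorrected ratio was over 1.5 times the corrected one.

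**Figure D1:**
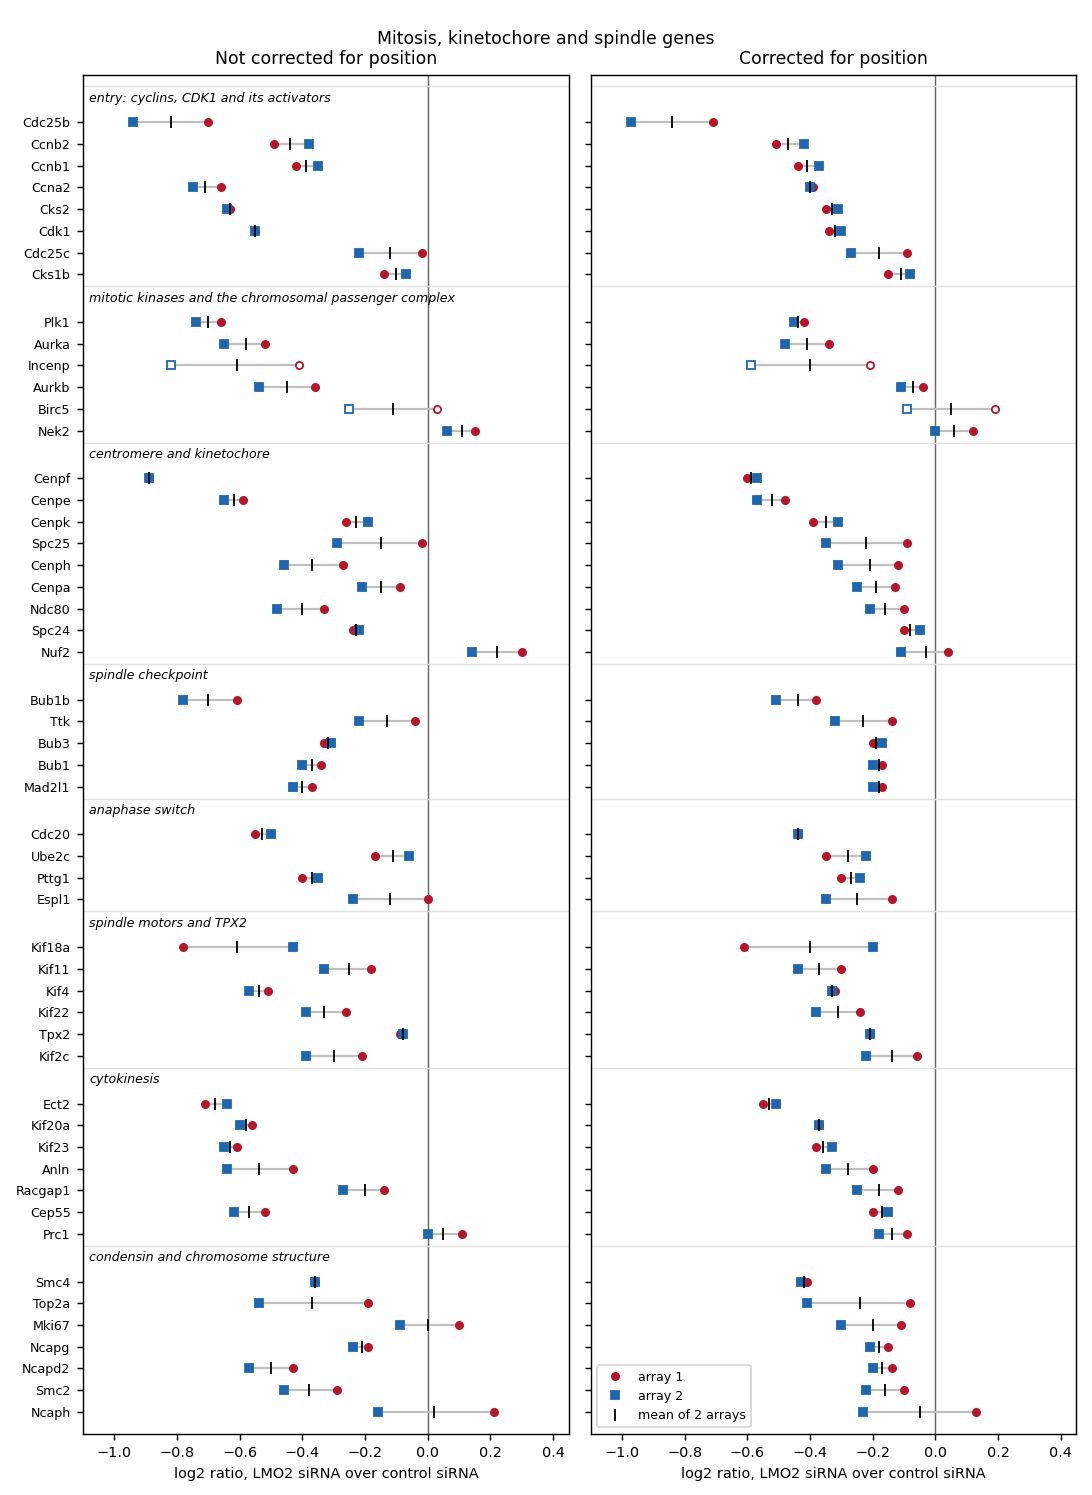
Log2 ratio of LMO2 siRNA over control siRNA for the 52 genes, by role, without (left) and with (right) correction for array position. Circles are array 1, squares array 2, the tick is their mean and the grey line joins them; open symbols mark Birc5 and Incenp, whose control spots were saturated. Most genes lie left of 0 on both arrays in both panels, between -0.89 and 0.22 on the left and between -0.84 and 0.06 on the right as means.

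Called lower in both sets of values, and unsaturated, were 36 of the 52, a count for which all genes gave 13.1%. This combined rule was chosen after the data were seen. The stricter rule that also takes the scanner's processed signals, in which only 3.98% of all genes were called lower, left 10 genes that fell: Ccnb1, Ccnb2, Cdc25b, Plk1, Cenpe, Cenpf, Bub1b, Cdc20, Ect2 and Smc4. None of the 52 rose. Over all genes 2.8% fell and 5.79% rose by the same rule. The adjusted p of the 10 in processed signals ran from 0.032 to 0.049, and 8 more of the 36 lay between 0.05 and 0.06, among them Ccna2, Cdk1, Aurka, Kif11, Kif20a and Kif23. At an unadjusted p under 0.05, 31 of the 52 were lower in processed signals and 0 higher, again with no share of all genes given. The 3.98% is a share at the adjusted threshold and cannot be set beside the 31. The median in processed signals was -0.26, close to the position-corrected one, but processed signals are also divided by a position factor. Limma's prior degrees of freedom were 2.25 for processed signals against 28.1 for the uncorrected values. The count of 10 also moved with the settings: it was 4 without saturated probes, 22 when both channels had to be well above background, 36 under another variance prior and 0 with no filter on dim probes.

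**Figure D2:**
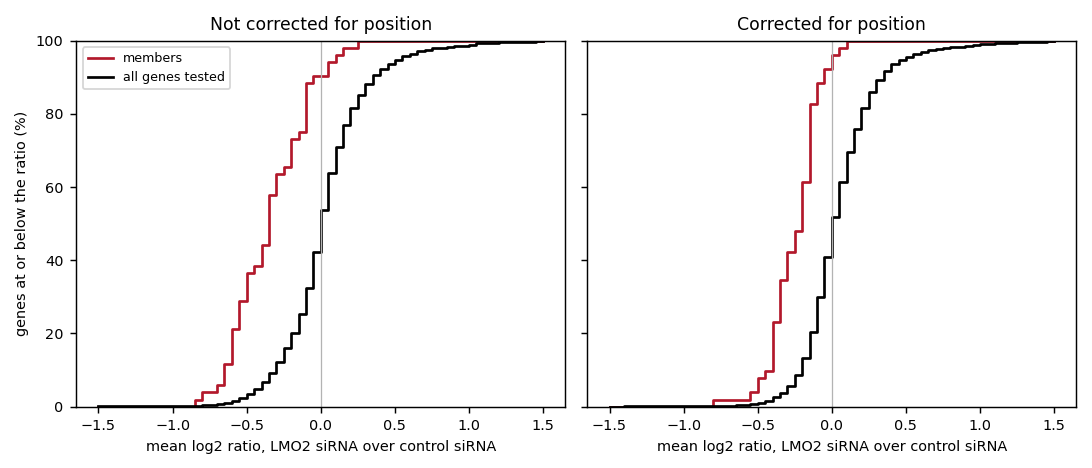
Share of genes (%) at or below each mean log2 ratio, for the 52 members (red) and all 14263 genes tested (black), without and with correction for position. At a ratio of -0.20 the members stand at 73.1% and all genes at 20.2% on the left, and at 61.5% and 13.2% on the right.

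The sequences upstream of the 52 genes were read from RefSeq promoters of mouse build GRCm38.p6. These held 44 of the 52 genes (all but Incenp, Tpx2, Kif20a, Aurkb, Smc4, Cdc25c, Spc24 and Ccna2). Motif shares were counted over these members whatever their ratio, so they describe a list made up by function. Each window ran from 250 bases before to 50 after the annotated start, and a gene with several starts counted as holding a motif if any window did. Searched on both strands was the CHR (cell cycle genes homology region, the element that MuvB complexes bind) as TTTGAA with its variants TTTAAA and also TTCGAA, and the box bound by NF-Y as CCAAT. E2F-like sites were searched as TTCCCGC and, in the other form, TTGGCGC. The letters of GATA-like sites were AGATAA and, in the other form, TGATAA. Among the member windows 3 pairs of different motifs and 1 pair of the same motif overlapped. Shown are the 170 bases before the start of 7 genes called lower, ending at the start, and of Nuf2, the gene called higher without correction. Capitals mark CHR-like letters and CCAAT in either orientation. All 7 hold both marks in the bases shown, so they do not stand for every gene called lower, and Cdk1 among them did not meet the stricter rule. The same bases of Cdc25b, Cenpe and Bub1b, which fell, hold no CHR-like match. Those of Kif18a, Mad2l1 and Pttg1, called lower in both sets, hold neither mark.
Ccnb1, chr13:100786487-100786656, minus strand: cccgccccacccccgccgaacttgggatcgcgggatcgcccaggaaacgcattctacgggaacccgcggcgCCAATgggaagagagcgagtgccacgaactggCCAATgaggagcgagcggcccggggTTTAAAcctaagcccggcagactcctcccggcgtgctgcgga
Ccnb2, chr9:70421555-70421724, minus strand: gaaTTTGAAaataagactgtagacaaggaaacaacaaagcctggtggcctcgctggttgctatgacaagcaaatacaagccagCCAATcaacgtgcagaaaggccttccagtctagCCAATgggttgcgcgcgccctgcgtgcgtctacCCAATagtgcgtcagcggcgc
Cdk1, chr10:69352913-69353082, minus strand: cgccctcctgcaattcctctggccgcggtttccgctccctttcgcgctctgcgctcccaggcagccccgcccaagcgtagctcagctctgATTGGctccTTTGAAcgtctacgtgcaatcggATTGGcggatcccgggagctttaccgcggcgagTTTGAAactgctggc
Plk1, chr7:122159265-122159434, plus strand: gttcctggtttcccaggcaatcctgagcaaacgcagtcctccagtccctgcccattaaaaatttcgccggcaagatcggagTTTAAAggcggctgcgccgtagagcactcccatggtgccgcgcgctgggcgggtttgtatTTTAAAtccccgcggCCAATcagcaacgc
Cenpf, chr1:189688087-189688256, minus strand: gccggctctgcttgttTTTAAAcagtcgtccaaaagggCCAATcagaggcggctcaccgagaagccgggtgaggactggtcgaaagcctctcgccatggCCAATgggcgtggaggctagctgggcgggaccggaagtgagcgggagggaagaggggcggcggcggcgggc
Cdc20, chr4:118437344-118437513, minus strand: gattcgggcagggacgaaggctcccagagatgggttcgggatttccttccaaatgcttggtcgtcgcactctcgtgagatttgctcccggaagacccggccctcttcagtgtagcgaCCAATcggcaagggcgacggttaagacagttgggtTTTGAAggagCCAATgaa
Ect2, chr3:27153855-27154024, minus strand: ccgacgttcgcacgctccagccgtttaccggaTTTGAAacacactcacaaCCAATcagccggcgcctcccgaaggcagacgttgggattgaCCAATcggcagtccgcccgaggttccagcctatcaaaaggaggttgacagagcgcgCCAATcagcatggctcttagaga
Nuf2, chr1:169531465-169531634, minus strand: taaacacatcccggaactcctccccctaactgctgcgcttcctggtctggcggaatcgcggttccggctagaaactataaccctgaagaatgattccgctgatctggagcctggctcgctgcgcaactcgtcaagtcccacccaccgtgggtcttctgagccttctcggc

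A CHR-like match stood in 35 of the 44 genes, or 79.5%, against 25.4% of the 10287 tested genes with a promoter sequence and 31.9% of all 27025 genes in the table. The CCAAT box stood in 34 (77.3%), against 43.0% of tested genes and 41.1% of all. Both together were found in 30 of the 44, or 68.2%, against 10.8% of tested genes and 12.8% of all. At least 2 CCAAT boxes occurred in 22 of the 44 genes (against 16.2% of tested genes and 13.3% of all). The E2F-like letters were in 10 genes (22.7%, against 13.2% and 7.79%), and the GATA-like letters in 5 (11.4%, against 13.8% and 21.0%). Of the 10 genes that fell, 9 had a promoter sequence, and all 9 windows held both a CHR-like match and a CCAAT box, in part after the start or before the bases shown. The Nuf2 window held none of the 4 motifs, and neither did the windows of Mad2l1 and Pttg1, which were called lower in both sets. A match is a run of letters and does not show that a protein binds there.

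**Figure D3:**
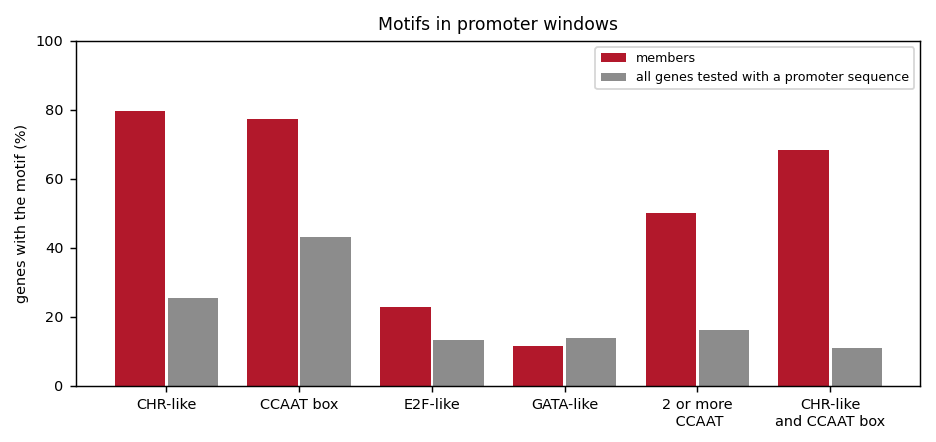
Share of genes (%) with each motif in the window from 250 bases before to 50 bases after the annotated start, for the 44 members (red) and the 10287 tested genes (grey) with a promoter sequence. The CHR-like match with a CCAAT box was in 68.2% of members and 10.8% of tested genes, and the GATA-like match in 11.4% and 13.8%.

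Among the members, those with both motifs had a median position-corrected log2 ratio of -0.30, and the 14 without both had -0.18. With a CCAAT box the median was -0.30 and without it -0.16, while for the CHR-like match alone the medians were -0.25 and -0.21. These medians describe the 44 genes and were not tested.

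Of 8 genes for entry into mitosis 6 were called lower, with the same 6 called in both sets of values, and their medians were -0.49 and, corrected, -0.36. Cdc25b, the phosphatase that activates CDK1 at the G2/M border, read 7888 and 5632 in the LMO2 siRNA channel of arrays 1 and 2, against 25459 and 20669 in the control channel. Its ratios were -0.70 and -0.94, both arrays well below 0, and correction for position hardly moved the mean (-0.82 ± 0.17 and -0.84 ± 0.18, limma adjusted p 1.7e-12 and 3.1e-06). It fell 1.76-fold, and the other bright Cdc25b probe gave -0.88 in both sets. Cdc25b had the lowest corrected ratio of the 52 genes.

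Ccnb1, which encodes cyclin B1, the activating partner of CDK1, gave signals of 3680.1 and 3355 with LMO2 siRNA and 9469 and 8027 with control siRNA from its brightest probe. The ratios of -0.42 and -0.35 were close on the 2 arrays, and it fell 1.31-fold (-0.39 ± 0.05, adjusted p 1e-06). The 3 Ccnb1 probes all lay below 0 but differed in size, at -0.39, -1.05 and -0.78 uncorrected and -0.41, -0.83 and -0.72 corrected, so the fold of this gene depends on the probe. The 3 probes are 60 bases long and share no run longer than 8 bases; the first 30 bases of each are shown because their ratios disagree beyond the spread between arrays.
Ccnb1 probe in row 293: gctggcacagctgaactgtacactagttca
Ccnb1 probe in row 138: acagtattcctatcagcattccttacaatg
Ccnb1 probe in row 184: acagtggatccaactaatgtatatatctgt

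Ccnb2, the second B-type cyclin, read 16439 and 14629.8 with LMO2 siRNA and 46999 and 37461 with control siRNA, and it fell 1.35-fold (-0.44 ± 0.08, adjusted p 1.7e-07; corrected -0.47 ± 0.06). Ccna2, cyclin A2, which acts from S phase into early mitosis, read 10492 and 8368 with LMO2 siRNA and 33260.1 and 27368 with control siRNA. Its mean of -0.71 ± 0.07 was among the 3 lowest, and its corrected mean of -0.40 ± 0.01 was called too (adjusted p 0.00017). In processed signals Ccna2 was at an adjusted p of 0.051.

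Cdk1, the kinase at the centre of the switch, read 1760.5 and 1392 with LMO2 siRNA and 4832 and 3716 with control siRNA from its brightest probe, and was called lower at -0.55 ± 0.00061, or -0.32 ± 0.03 corrected. Its second probe, near background with no signal above 71.6, gave 0.00 and 0.02. Cks2, a small CDK-binding subunit, was called lower at -0.63 and -0.33 without and with correction, whereas its paralog Cks1b was not called at -0.10 and -0.11. Cdc25c, the other CDK1 phosphatase, was called lower after correction alone (-0.12 and -0.18, corrected adjusted p 0.03).

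Of 6 genes for mitotic kinases and the chromosomal passenger complex 4 were called lower, and 2 of these, Plk1 and Aurka, were called in both sets and unsaturated. Plk1, the Polo kinase of mitotic entry and spindle assembly, read 8083 and 5953 in the LMO2 siRNA channel of arrays 1 and 2, against 25317 and 19034 in the control channel. Both arrays were below 0, at -0.66 and -0.74, and Plk1 fell 1.62-fold, or 1.35-fold with correction (-0.70 ± 0.06 and -0.44 ± 0.03, limma adjusted p 1.4e-11 and 8.9e-05). Aurka, the Aurora kinase of spindle poles, was called lower at -0.58 ± 0.09, corrected -0.41 ± 0.09. Aurkb, the kinase of the passenger complex, was called lower at -0.45 ± 0.13, but its probe lies in row 12, and corrected it stood at -0.07 ± 0.05 (adjusted p 0.3). The corrected median of all genes in that first block of rows was 0.10, so corrected values there are not centred on 0.

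Nek2, a kinase of centrosome separation, read 1490.4 and 1131 with LMO2 siRNA and 2456 and 1941 with control siRNA. It was the second highest of the 52 at 0.11 ± 0.06 (adjusted p 0.12) and was not called, nor was it with correction (0.06 ± 0.09). The passenger proteins survivin, from Birc5, and INCENP, from Incenp, had saturated control spots on each array, which bounds that channel from below, and no fold is given for either. Their saturated spots gave 0.03 and -0.25 for Birc5 and -0.41 and -0.82 for Incenp on arrays 1 and 2.

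The centromere and kinetochore group had 8 of 9 genes called lower and held the lowest and the highest gene of the 52 without correction. Its median was -0.23, and -0.21 corrected, with 7 genes called lower in both sets. Cenpf, a large protein of the outer kinetochore, read 3283 and 2435 in the LMO2 siRNA channel of arrays 1 and 2, against 11717 and 8455 in the control channel. Both arrays gave -0.89, and Cenpf fell 1.85-fold (-0.89 ± 0.0037 and -0.59 ± 0.02, limma adjusted p 4.3e-14 and 9.5e-06). A second Cenpf probe, with a lowest signal of 61.9, gave -0.19 and -0.16.

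Cenpe, the kinesin that moves chromosomes to the spindle equator, read 11819.6 and 10094 with LMO2 siRNA and 35831 and 30857 with control siRNA. It fell 1.54-fold (-0.62 ± 0.04, adjusted p 1.6e-10; corrected -0.52 ± 0.06), with ratios of -0.59 and -0.65. These values come from its brightest probe. The dimmer Cenpe probes gave -0.51 and -0.31 without correction, and -0.35 and 0.00 with it. Among the proteins of the inner kinetochore, Cenpa, the centromeric histone, was called lower at -0.15 and -0.19 without and with correction, Cenph at -0.37 and -0.21 and Cenpk at -0.23 and -0.35.

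The 4 subunits of the NDC80 complex, which grips microtubules, have probes in rows 56, 157, 350 and 508, and their differences from each other were not tested. Ndc80 gave -0.40 and -0.16 and Spc25 -0.15 and -0.22, both called in each set, while Spc24 was called at -0.23 and not with correction (-0.08, adjusted p 0.26). The arrays of Spc25 were apart without correction, at -0.02 and -0.29 (SD 0.19). Nuf2, the fourth subunit, read 1902 and 1393 with LMO2 siRNA and 2853 and 2281 with control siRNA. It was the one gene of the 52 called higher (0.22 ± 0.12, ratios 0.30 and 0.14, adjusted p 0.0021), from a probe in row 508, and with correction it was at -0.03 ± 0.10 and not called (adjusted p 0.65).

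Of the 5 spindle checkpoint genes 4 were called lower, all 4 in both sets, and the corrected fit called the fifth, Ttk, as well. Bub1b, which encodes BUBR1, the checkpoint protein that binds and blocks CDC20, read 1091 and 875 in the LMO2 siRNA channel of arrays 1 and 2, against 3045 and 2714 in the control channel. It fell 1.62-fold, or 1.36-fold corrected (-0.70 ± 0.12 and -0.44 ± 0.09, limma adjusted p 2.9e-11 and 0.00011), with -0.61 and -0.78 on the 2 arrays. The kinase gene Bub1 and Mad2l1, the gene of MAD2, were called lower at -0.37 and -0.18 and at -0.40 and -0.18 without and with correction. Ttk, the kinase MPS1 at the head of the checkpoint, gave -0.13 and -0.23.

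Bub3, the partner of BUB1 and BUBR1 at kinetochores, read 7033 and 6195 with LMO2 siRNA and 17416 and 14643 with control siRNA from its brightest probe, in row 189. That probe gave -0.32 and 2 dimmer ones, in rows 504 and 390, gave 0.05 and 0.04. With correction the 3 probes gave -0.19, -0.18 and -0.16, so their signs differed only before it.

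In the anaphase group, 2 of 4 genes were called lower without correction and all 4 with it, and the medians were -0.25 and -0.28. Cdc20, the activator of the anaphase-promoting complex and target of the checkpoint, read 11567 and 10416 in the LMO2 siRNA channel of arrays 1 and 2, against 34030.2 and 28708 in the control channel. It fell 1.44-fold, or 1.36-fold corrected (-0.53 ± 0.03 and -0.44 ± 0.00032, limma adjusted p 4.1e-09 and 7.9e-05). Pttg1, securin, which holds separase inactive, was called lower at -0.37 and -0.27. Ube2c, the ubiquitin-conjugating enzyme of the complex, gave -0.11 and -0.28 and Espl1, separase, -0.12 and -0.25, each called with correction only.

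Among 6 genes for spindle motors and TPX2, 5 were called lower, 4 of them in both sets, and the medians were -0.31 and -0.32. None of them met the stricter rule. The chromokinesins Kif4 and Kif22 gave -0.54 and -0.33, and -0.33 and -0.31, without and with correction. Kif18a, which limits chromosome oscillation, was called lower at -0.61 ± 0.25, but its arrays were apart at -0.78 and -0.43. Kif2c, the microtubule depolymerase MCAK, was at -0.30 and -0.14 and called only without correction, and Tpx2, the activator of Aurora A, was at -0.08 and -0.21 and called only with it.

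Kif11, the motor that pushes spindle poles apart, read 714 and 569 with LMO2 siRNA and 1443 and 1257 with control siRNA from its brightest probe. That probe was called lower at -0.25 ± 0.11, corrected -0.37 ± 0.10. The 2 dimmer Kif11 probes gave 0.15 and -0.07, and -0.07 and -0.11 with correction, so all 3 were below 0 only once corrected.

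The cytokinesis genes had the lowest uncorrected median of the 8 roles, -0.57, which correction brought to -0.28. Of 7 genes 6 were called lower, the same 6 in both sets. Ect2, the exchange factor that activates RhoA at the cell equator, read 1630.4 and 1267 in the LMO2 siRNA channel of arrays 1 and 2, against 4993 and 3603 in the control channel. It fell 1.60-fold, or 1.44-fold corrected (-0.68 ± 0.05 and -0.53 ± 0.03, limma adjusted p 2.7e-11 and 2.2e-05). Racgap1, which recruits ECT2 to the central spindle, was called lower at -0.20 and -0.18, the scaffold gene Anln at -0.54 and -0.28 and the abscission gene Cep55 at -0.57 and -0.17. Prc1, which bundles the microtubules of the central spindle, read 4214 and 3272 with LMO2 siRNA and 7478 and 6099 with control siRNA, and at 0.05 ± 0.08, corrected -0.14 ± 0.07, it was not called.

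Kif20a and Kif23, kinesins of the central spindle, each have 2 probes in distant rows, and these gave different ratios before correction. The Kif23 probe in row 72 gave -0.63 and the one in row 492 gave -0.07, and with correction they gave -0.36 and -0.33. The Kif20a probes, which share a run of 33 bases, gave -0.58 in row 104 and -0.15 in row 374, and -0.37 and -0.30 with correction. The first 30 bases of the Kif23 probes, which share no run longer than 5 bases, are given here as an example of separate sequences in one transcript.
Kif23 probe in row 72: atcggttcagtttactgatattgagacttt
Kif23 probe in row 492: tggggagattcagactaaagtcattaaggg

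Of 27 genes with at least 2 unsaturated probes above background, 18 had a smaller gap between the 2 brightest probes with correction, and the median gap went from 0.20 to 0.12. Where all signals were 500 or more, 10 of 14 gaps were smaller and the median gap went from 0.16 to 0.07. The Cks2 probes went the other way, from -0.63 in both to -0.33 and -0.70. Signs differed between probes for Bub3, Kif11 and Smc2 without correction, and for Cdk1, Smc2 and Top2a with it.

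**Figure D4:**
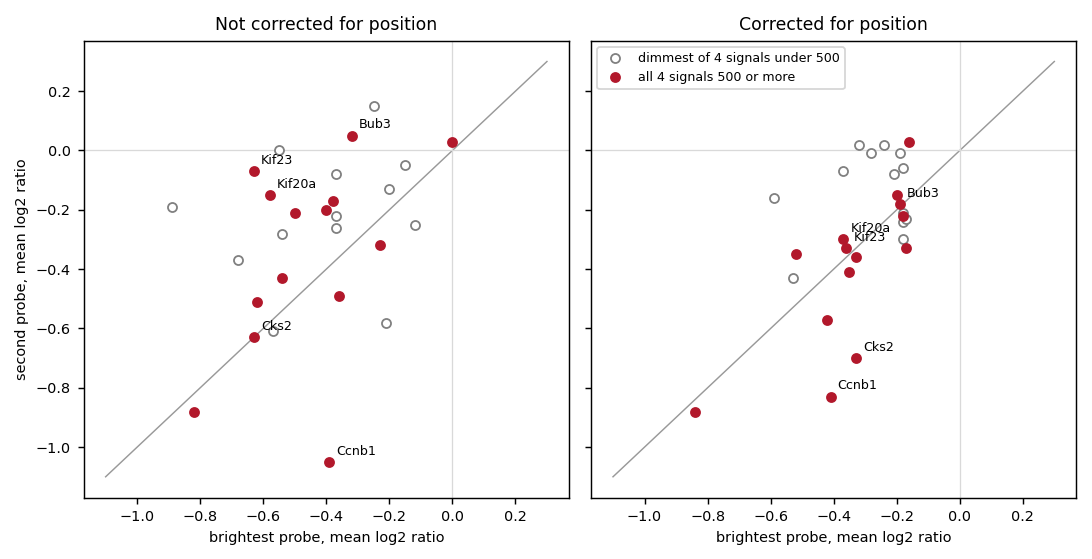
Mean log2 ratio of the second brightest probe against the brightest for 27 genes, without and with correction for position; the line marks equal values. Filled points have signals of 500 or more in both channels of both arrays. Kif20a and Kif23 move onto the line with correction, while Cks2 leaves it.

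Of the probes used, 34 lay in array rows 1 to 266 and 18 in rows 267 to 532. In the lower rows 33 of 34 genes were called lower (44.4% of all genes there) with a median of -0.51, and in the higher rows 7 of 18 (9.28% of all genes there) with a median of -0.12. With correction 30 and 13 were called lower. That fit called 20.5% of all genes lower over the whole array, and no share by block is given. The corrected medians were -0.29 and -0.22, against 0.02 and -0.03 for all genes. The members were thus lower than all genes in both blocks, and with correction the 2 blocks gave similar medians.

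**Figure D5:**
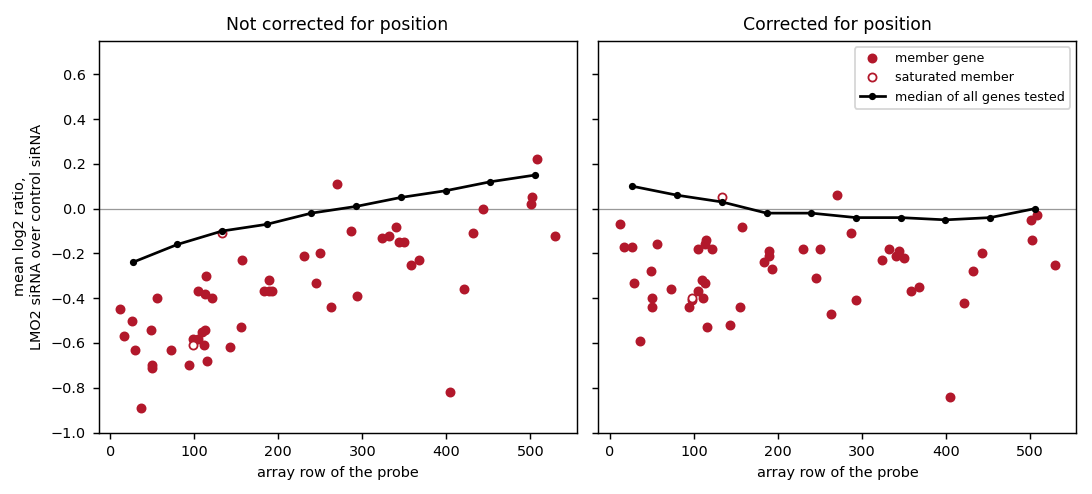
Mean log2 ratio of each member against the array row of its probe, without and with correction for position; the black line is the median of all genes tested in each of 10 equal blocks of rows. Without correction the line climbs from -0.24 to 0.15 and the members climb with it; with correction the line stays between -0.05 and 0.10 and most members lie below it.

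Of 7 genes for condensin and chromosome structure 5 were called lower, the same 5 in both sets, with medians of -0.36 and -0.18. Smc4, the ATPase core of condensin, read 14396 and 12382 in the LMO2 siRNA channel of arrays 1 and 2, against 37447 and 31090.0 in the control channel. Its 2 arrays gave the same ratio of -0.36, and it fell 1.29-fold, or 1.34-fold with correction (-0.36 ± 0.0018 and -0.42 ± 0.01, limma adjusted p 2.6e-06 and 0.00012). The condensin I genes Ncapd2 and Ncapg were called lower at -0.50 and -0.17 and at -0.21 and -0.18, whereas Ncaph was not, at 0.02 and -0.05, its 2 arrays disagreeing in sign (0.21 and -0.16).

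Smc2, the partner of SMC4, read 2616 and 2153 with LMO2 siRNA and 6060.4 and 5464 with control siRNA from its brightest probe. That probe was called lower at -0.38 ± 0.12, but its 4 probes gave -0.38, -0.17, 0.08 and 0.16, and -0.16, 0.03, 0.02 and -0.01 with correction, so the call rests on that probe. Top2a, topoisomerase II alpha, which untangles sister chromatids, read 2162 and 1677 with LMO2 siRNA and 4630.4 and 4463 with control siRNA from its brightest probe and was called lower at -0.37 ± 0.24, corrected -0.24 ± 0.23. The 2 dimmer Top2a probes gave -0.26 and -0.33 without correction and 0.02 and -0.04 with it, so the corrected call rests on the brightest probe. Mki67, the gene of the proliferation antigen Ki-67 at the chromosome surface, was at 0.00 ± 0.13 and not called, and with correction it was called lower at -0.20 ± 0.13 (adjusted p 0.017).

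A wider list of 139 other mitosis genes gave 76 called lower, 19 higher and 42 neither among 137 measured, with a median of -0.18, and -0.16 corrected. Those called lower were 55.5%, against 27.4% of all genes tested, of which 24.7% were called higher. In both sets and unsaturated, 58 were called lower and 6 higher, against 1869 and 2053 of all 14263 genes tested. By the stricter rule 13 fell and 2 rose, while 2.8% of all genes fell and 5.79% rose. In the list of other centromere and kinetochore genes, 18 of 29 were called lower and 3 higher. Cenpn, a reader of CENP-A chromatin, fell (-0.70 and -0.39 without and with correction), as did Nsl1 of the MIS12 complex (-0.41 and -0.42). Zwint, which links that complex to the checkpoint, rose 1.81-fold (0.86 ± 0.09, adjusted p 1.8e-13; corrected 0.80 ± 0.04).

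Sgo1, shugoshin, which protects centromeric cohesion, fell 1.85-fold in a checkpoint and cohesion list with 8 of 12 called lower and 1 higher (-0.88 ± 0.0039, adjusted p 5.1e-14; corrected -0.75 ± 0.01). Among other spindle and microtubule genes 23 of 30 were called lower and 5 higher, and Kif18b (-0.78 and -0.60), Haus4 of the augmin complex (-0.63 and -0.46) and Gtse1 (-0.62 and -0.47) fell. Of 12 cohesin and condensin II genes 7 were called lower and 1 higher, and Ncapg2 fell (-0.32 and -0.50).

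A list of the anaphase-promoting complex, which also holds its co-activator gene Fzr1, its inhibitor gene Fbxo5 and its conjugating enzyme gene Ube2s, had 6 of 17 called lower (35.3%), 3 higher and a median of -0.06. Fbxo5 and Ube2s were among the genes called lower and Fzr1 among those called higher. The subunit gene Cdc23 fell (-0.49 and -0.45). Other entry genes and mitotic kinases gave 3 of 14 lower (21.4%, under the 27.4% of all genes) and 2 higher, and Nek6 fell (-0.34 and -0.45). Other cytokinesis genes gave 4 of 9 lower (44.4%) and 2 higher, with the septin gene Septin9 rising 3.05-fold (1.61 ± 0.20, adjusted p 6.2e-19; corrected 1.68 ± 0.20). Whether these lists differ from the 52 genes was not tested.

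A list of the DREAM, B-MYB and FOXM1 factors of G2/M genes, which holds activators and parts of the repressing DREAM complex, gave 7 of 14 called lower and 2 higher, with a median of -0.13, and -0.17 corrected. None of the 14 met the stricter rule. Without correction the lowest were Nfya, a subunit of the CCAAT-binding factor NF-Y (-0.60 and -0.25), the pocket protein gene Rbl1 (-0.56 and -0.25) and Lin37 of the MuvB core (-0.49 and -0.18). Each was called in both sets, from probes in rows 37, 29 and 56. The lowest with correction was Nfyb, named for that value and not called without correction (-0.09 and -0.35). Foxm1 and Mybl2, named for their role and after their values were seen, were called lower at -0.24 and -0.32 and at -0.27 and -0.26.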

How the data were processed

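Two-colour Agilent arrays of total RNA were used, with one group of 2 arrays. Spot and background intensity values were deposited as scanner output of Agilent Feature Extraction 9.1.3.1, per the file headers. The authors' processed signals are background-subtracted, dye-normalised intensities divided by a position factor, a ratio near 1, per the file headers. Red over green is the direction of the deposited log10 values per spot, and the value table of the series repeats them to within 0.005, with medians of 0; the deposited p-value of each spot was not used. The dyes of the arms come from the labels, whose labelling protocol names both dyes. Both arrays share a slide and a scan.

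Mean signals were background-corrected (normexp, offset 50) and loess-normalised within each array without weight on 1639 control spots. Of 41174 probes 24696 were well above background in a channel on both arrays; the brightest probe stood for each of 14263 genes. Symbols came from RefSeq for 24844 probes and from the array for 9518; 6812 had none. Limma 3.58.1 in R 4.3.3 tested the mean log2 ratio against 0, with 1 residual degree of freedom and 28.1 prior degrees (9.9 with position correction, 2.25 for processed signals). The number of arrays limits the precision. The script was tested on simulated data. Alternatives covered background, centring, filters, probe choice and the variance prior.

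The members, lists and rules were chosen with earlier results of these data known. Named with signals were genes that fell, the 3 highest, the 3 lowest and those whose probes differed in sign in either set; from each wider list up to 3 genes past the stricter rule, or called where none was, with the largest ratios.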

Additional observations from a re-analysis of the deposited data

How the results depend on the processing

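With 2 arrays of one dye orientation, every call rests on 1 residual degree of freedom and on variance borrowed across genes. The arms are paired within each array, since the value tested is the ratio on that array. No paired analysis was possible because, beyond that ratio, 1 group leaves no second value per replicate number to block on.

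The cause of the changes below was not tested unless the setting itself names it. The count of 40 genes called lower was 10 with processed signals (prior degrees of freedom 2.25, against 28.1) and 8 with the series' value table, and 37 to 52 under the other alternatives. The share of all genes called lower also moved, from 27.4% to 3.98% with processed signals and 3.54% with the series table. Under the other alternatives it was 17.7% to 64.6%. The 1 gene called higher became 0 with position correction, processed signals, the series table and median centring. The 36 called lower in both sets became 10 with processed signals and 8 with the series table. The 10 that fell became 22 with both channels above background, 0 with no filter on dim probes, 4 without saturated probes and 36 with a trended, robust prior. For these combined rules no share of all genes is given by setting.

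By role, in the order of the report, processed signals called 3, 1, 2, 1, 1, 0, 1 and 1 lower and from the series' values the calls were 2, 1, 2, 1, 1, 0, 1 and 0. The anaphase group had 4 with position correction and with median centring. The member median log2 ratio of -0.37 was -0.24 with position correction, -0.26 with processed signals, -0.26 with the series table, -0.32 with the mean of all probes and -0.34 to -0.40 from a single array. Median centring without loess gave -1.06, but moved the median of all genes to -0.41 and called 64.6% of all genes lower.

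Under median centring Nuf2, called higher without it, changed sign and was called lower (-0.41). Nek2 (-0.51), Prc1 (-0.63), Ncaph (-0.49) and Mki67 (-0.79) had not been called before, and were called lower with it. Nuf2 was also below 0 with position correction (-0.03), processed signals (-0.04) and the series table (-0.04), and Mki67 was called lower with position correction (-0.20). Other mitosis genes called lower were 13 with processed signals, 11 with the series table and 131 with median centring, and those called higher 10 with position correction, 3 with processed signals, 3 with the series table and 1 with median centring. The shares of all genes called lower were 3.98%, 3.54% and 64.6%, and those called higher 24.2%, 7.44%, 6.97% and 2.97%, in the same order.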
